A study of Mus musculus with 17 samples.

Results

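The transcript levels of 37 mouse genes for laminins, nidogens and integrins were examined in cultured primary tubular epithelial cells (PTEC) and in whole kidneys. The genes were taken by symbol from a fixed list of 10 laminin chains, 2 nidogens, 17 integrin α and 8 integrin β subunits. No cut on measured values was applied, but earlier results of these data were known when the list was chosen. All 37 were found among the 53313 gene identifiers that the 17 count files share.

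Laminins are trimers of an α, a β and a γ chain that assemble into the sheet on which epithelia rest, the basement membrane. Nidogens bind laminin and collagen IV and so link both networks of that sheet. Integrins are pairs of an α and a β subunit in the cell membrane that hold cells to laminin, collagen, fibronectin or other cells, and on tubular cells most of them contain Itgb1. In the kidney, tubules rest largely on laminin with the Lama1 and Lama5 chains, the glomerular filter on laminin with Lama5 and Lamb2, and leukocytes carry integrins of their own that contain Itgb2 or Itgb7.

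PTEC were grown from tubular fragments of wild-type C57BL/6Rj mice (so written in the labels, and C57BL/6JRj in the study's methods), sieved and kept in epithelial growth medium. The 4 non-senescent cultures were untreated and taken at day 6, and the 4 senescent cultures had received γ-irradiation of 10 Gy at confluence and were taken at day 16. Time in culture and irradiation cannot be told apart in this pair of groups, and the labels do not say that the cultures came from separate mice, so p-values measure the spread between these cultures, which may be technical. The whole kidney tissue came from untreated male wild-type mice of the same strain, from the part of the right kidney that was frozen while the rest was fixed for histology, at 3, 12 and 24 months of age, 3 mice per age. All libraries were poly(A) enriched and strand specific.

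Total counts per library were 26963442 to 32838856 at day 6, 29041073 to 35409144 at day 16, 37311247 to 49471409 at 3 months, 54097073 to 59718029 at 12 months and 62761670 to 66894790 at 24 months. Cdkn1a, a cell cycle inhibitor used as a senescence marker, was at 256 to 423 CPM (counts scaled to a common library total) at day 6 and at 674 to 927 CPM at day 16, and the proliferation gene Mki67 fell by 5.41 on the log2 scale. In the cultures the proximal tubule markers Slc34a1 and Slc22a6 were at 0 to 22.4 and 0 to 0.332 CPM and Lrp2, Hnf4a and Aqp1 at 65.5 to 539, 12.1 to 133 and 6.92 to 50.2 CPM, while Slc34a1 was at 2503 CPM or more in every kidney. The 3-month-old kidneys had been counted on a different gene set from the older ones, so age and counting cannot be told apart in comparisons with 3 months. The identifier version of Lama1, Lama2, Lamb1 and Itga6 differed between both kidney gene sets.

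The windows just upstream of 4 of these genes are shown, and whether the levels below depend on them was not tested. Lama5 and Itgb1 were among the most abundant of the 37 transcripts in PTEC, and Itga11 and Lama2 had the largest rises there. The sequences are from RefSeq on GRCm38.p6, read 5′ to 3′ on the strand of the gene, with each GC box (GGGCGG on either strand, a binding motif of Sp factors) in capitals. The window of Lama5 is chr2:180225860-180226059 (minus strand), that of Itgb1 chr8:128685454-128685653 (plus strand), that of Itga11 chr9:62677626-62677825 (plus strand) and that of Lama2 chr10:27616943-27617142 (minus strand). The Lama2 window precedes the RefSeq start and lies in an intron of the longer GENCODE gene, and the others end just before the first base of the gene.
Lama5: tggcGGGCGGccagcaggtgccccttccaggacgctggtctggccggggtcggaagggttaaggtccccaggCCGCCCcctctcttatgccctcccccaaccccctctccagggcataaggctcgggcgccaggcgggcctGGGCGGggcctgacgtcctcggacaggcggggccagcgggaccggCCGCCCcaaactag
Itgb1: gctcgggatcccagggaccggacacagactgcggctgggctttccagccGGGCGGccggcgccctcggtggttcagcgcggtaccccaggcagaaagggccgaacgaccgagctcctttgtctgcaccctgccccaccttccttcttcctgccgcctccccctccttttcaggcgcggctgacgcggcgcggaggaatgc
Itga11: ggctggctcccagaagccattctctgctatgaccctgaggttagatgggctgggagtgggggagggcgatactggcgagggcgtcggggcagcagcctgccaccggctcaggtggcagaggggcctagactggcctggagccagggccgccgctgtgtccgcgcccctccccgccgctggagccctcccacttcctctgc
Lama2: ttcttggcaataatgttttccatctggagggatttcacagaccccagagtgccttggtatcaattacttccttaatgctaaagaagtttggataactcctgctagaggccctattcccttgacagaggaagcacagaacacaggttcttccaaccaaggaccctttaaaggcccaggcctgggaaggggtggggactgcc

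The printed window of Lama5 holds 4 GC boxes and that of Itgb1 holds 1, while those of Itga11 and Lama2 hold none. Over the 250 bases before the start, 10 of 27 windows of 24 members with an entry (37.0%) held a GC box, as did 32.7% of the 32851 windows in the table. The TATA box (TATAAA on either strand) was in 0 of the 27 windows and in 12.4% of all windows, and the AP-1 box (TGANTCA on either strand) was in 1 of the 27, that of Itgax, and in 6.75% of all. The 9 genes with a GC box had a median level of 52.5 CPM per kilobase of exon in day 6 PTEC, and the 15 without had 0.260. In 3-month-old kidneys the same medians were 3.43 and 0.940 CPM per kilobase. Such medians were not taken over all genes. These are descriptions of the listed letters and say nothing of binding or of what sets the levels.

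Per kilobase of exon, a scale on which genes can be set side by side, Itgb1 stood first in all 5 groups. Its level was 474 ± 86.5 CPM per kilobase (SD, n = 4) at day 6, 1040.3 ± 285 at day 16, 65.8 ± 2.38 (n = 3) at 3 months, 61.1 ± 3.95 at 12 months and 62.02 ± 7.95 at 24 months. In PTEC it was followed by its laminin-binding partner Itga3, at 206 ± 8.31 CPM per kilobase at day 6 and 231 ± 26.2 at day 16. Next at day 6 came Nid1 (70.97 ± 22.4), Lamb1 (55.01 ± 16.9), Lama5 (52.5 ± 31.9) and Itgav (43.8 ± 15.8), and these neighbours lay within each other's SD.

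The kidneys had another order. At 3 months Itgb1 was followed by Itgb5 (30.6 ± 10.99 CPM per kilobase), Itgb6 (17.3 ± 1.68) and Itgb8 (15.2 ± 1.06), 3 β subunits that pair with Itgav. Itgav itself was at 11.2 ± 1.43, while Itga3 was at 7.52 ± 1.87 CPM per kilobase. At 12 months Itgb6 stood at 7.35 ± 1.27, below Itgb8 (15.4 ± 1.59), Lamb1 (12.5 ± 3.77) and Itgav (10.6 ± 0.708). PTEC and kidneys were scaled apart and differ in their cells, and no test was made between them.

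Between the senescent and the non-senescent PTEC, 15434 genes passed the filter on low counts, among them 34 of the 37. Itgax, Itgae and Itgb7, leukocyte integrin subunits, did not pass, with 0.0784 to 1.57, 0.0322 to 0.392 and 0.0965 to 0.471 CPM over the 8 cultures. A gene was called where its adjusted p was under 0.05 and its log2 fold change was beyond 0.5. By that rule 7 members were called higher at day 16, against 20.1% of all genes tested, and 6 were called lower, against 19.7% of all genes. The shares of the 34, 7 and 6 genes, are close to these backgrounds. The median log2 fold change was -0.03 over the 34 members and -0.00201 over all genes. With 1 culture left out the lower calls were 3 without day 6 culture 4, beside 20.4% of all genes, and 3 without day 16 culture 1, beside 15.1%. With the replicate number as a block 9 members were called higher and 7 lower, beside 23.2% and 21.3% of all genes.

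**Figure D1:**
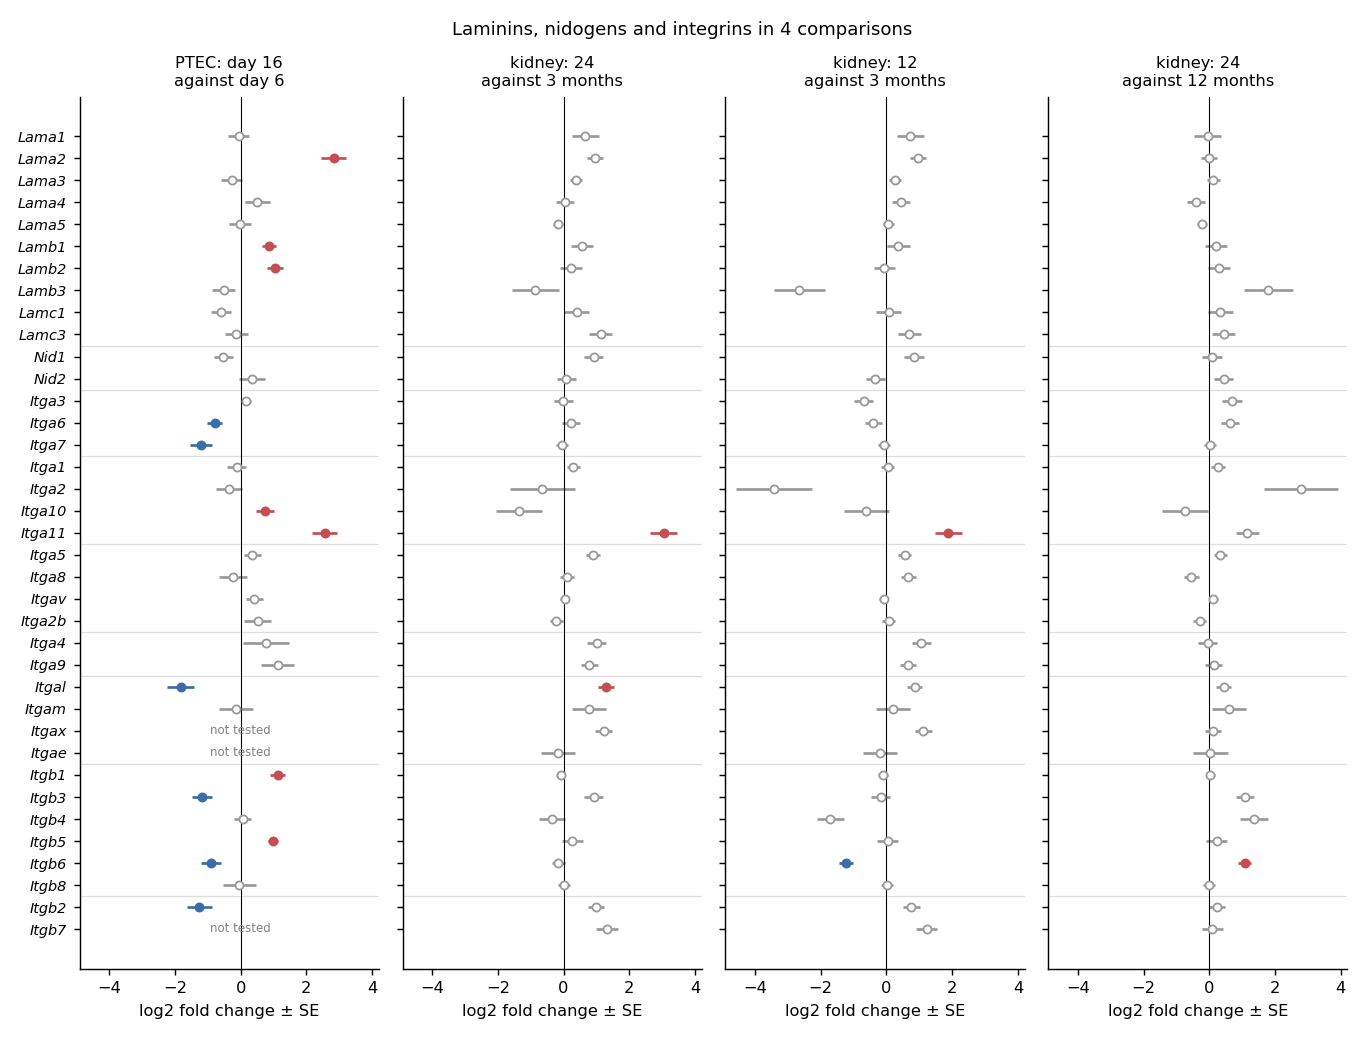
Log2 fold change ± SE (horizontal axis) of each of the 37 genes, ordered by role and separated by thin lines, in 4 comparisons. Red and blue points are genes called higher and lower, open grey points were not called, and 3 leukocyte integrins were not tested in PTEC. There are 13 calls in PTEC and 5 calls over the 3 kidney comparisons, and Itga11 and Itgb6 account for 4 of those 5.

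Of the laminin chains, 3 of 10 rose in the senescent PTEC and none fell, beside 20.1% of all genes called higher and 19.7% called lower. Lama2, the α chain of muscle and nerve basement membranes, lies at chr10:26980036-27619758 (GRCm38) and was at 0.861, 1.21, 0.745 and 1.99 CPM in the 4 day 6 cultures and at 9.33, 9.01, 4.70 and 11.4 CPM in the 4 day 16 cultures. All day 16 values lay above all day 6 values, and the log2 fold change was 2.84 ± 0.38 (SE; adjusted p = 3.68e-04). Lamb2, the β chain of the glomerular basement membrane, was at 54.5, 63.8, 72.6 and 125 CPM at day 6 and 181, 174, 144 and 154 CPM at day 16, a log2 fold change of 1.05 ± 0.24 (SE; adjusted p = 0.00670) with groups that did not overlap. Lamb1, the widespread β chain, was at 468, 522, 405 and 787 CPM and 976, 827, 1044 and 1138 CPM, and its log2 fold change was 0.87 ± 0.22 (SE; adjusted p = 0.00979). The lowest day 16 value of Lamb1 was close to the highest at day 6, that of culture 4, without overlapping it.

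The abundant α chain Lama5 did not pass the test. Its values were 383, 466, 401 and 1139.5 CPM at day 6 and 624, 510.5, 557 and 671 CPM at day 16 (log2 fold change -0.02 ± 0.33 SE, adjusted p = 0.974). The day 6 group was spread by culture 4, which held more than 2 times the level of the other 3, while the other 3 lay below all day 16 cultures. Lamc1, the main γ chain, was at 213, 233, 176 and 484 CPM and 207, 197, 134 and 197 CPM (-0.59, adjusted p = 0.145), again with culture 4 highest at day 6. The other chains, Lama1, Lama3, Lama4, Lamb3 and Lamc3, had log2 fold changes of -0.51 to 0.51 and were not called, though without day 16 culture 3 Lamb3 was called lower at -0.91 (adjusted p = 0.0359). Of the 34 tested members, 19 (55.9%) had their highest day 6 value in culture 4, which held the highest value for 28.7% of all genes tested. Culture 4 also stood apart in markers, with a summed level of 873 CPM over 12 proximal tubule genes beside 227 to 279 CPM in the other 3, of 39.2 CPM over 8 distal and collecting duct genes beside 6.03 to 9.69 CPM, and of 275 CPM over 8 fibroblast and pericyte genes beside 88.3 to 152 CPM. The part of these cells in the levels of culture 4 was not tested.

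Nidogens did not change by the rule. Nid1 was at 659, 477, 289 and 546 CPM at day 6 and 493, 329.7, 232 and 314 CPM at day 16, and these ranges overlapped (log2 fold change -0.53 ± 0.28 SE, adjusted p = 0.160). With the replicate number as a block, which compares cultures of the same number, Nid1 was called lower at -0.52 (adjusted p = 0.00972). Its value fell from day 6 to day 16 in all 4 same-numbered pairs, though no label pairs the cultures. Nid2 was at 6.33 to 23.4 CPM at day 6 and 12.2 to 17.8 CPM at day 16 (0.35, adjusted p = 0.494), and was called higher without day 6 culture 4, at 0.94 (adjusted p = 0.00749).

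Of the 4 integrin α subunits that bind collagen 2 rose, and of the 3 that bind laminin 2 fell, beside 20.1% of all genes called higher and 19.7% called lower. Groups this small were not tested as sets. Itga11, a collagen receptor best known from fibroblasts, was at 0.307, 0.328, 0.431 and 0.591 CPM at day 6 and 2.03, 3.48, 1.27 and 3.01 CPM at day 16. The groups did not overlap, and the log2 fold change was 2.56 ± 0.39 (SE; adjusted p = 7.09e-04), from 10, 10, 11 and 16 reads to 63, 104, 47 and 87 reads. Itga10, the collagen receptor of cartilage, went from 0.799, 0.722, 1.25 and 1.26 CPM to 1.58, 1.81, 1.54 and 1.80 CPM (0.74 ± 0.26 SE, adjusted p = 0.0445). That call was kept in 2 of 8 fits that left out 1 culture, those without day 6 culture 3 or 4, with adjusted p of 0.0615 to 0.114 in the other 6. The remaining collagen receptors Itga1 and Itga2, at 72.6 to 196 and 20.4 to 79.3 CPM, were not called.

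Of the laminin receptors, Itga3, by far the most abundant α subunit, was at 1199.5, 1218, 1110.1 and 1187 CPM at day 6 and 1371, 1108, 1346 and 1458 CPM at day 16, ranges that overlapped (0.16 ± 0.14 SE, adjusted p = 0.368). Itga6, which pairs with Itgb1 or with Itgb4 in hemidesmosomes, was at 247, 275, 136 and 342 CPM and 139, 141, 138 and 159.6 CPM and was called lower at -0.79 ± 0.24 (SE; adjusted p = 0.0231). Its day 6 culture 3 lay below all day 16 cultures and the other 3 above them, so the groups overlapped. The call of Itga6 was lost without day 6 culture 4 (adjusted p = 0.0554) and without day 16 cultures 1 or 2 (0.0620 and 0.0561). Itga7, the laminin receptor of muscle, fell from 11.04, 13.5, 19.02 and 27.8 CPM to 5.44, 5.69, 9.19 and 10.47 CPM, with no overlap (-1.21 ± 0.33 SE, adjusted p = 0.0141).

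The α subunits for fibronectin and related ligands were not called. Itgav was at 229 to 628 CPM at day 6 and 565 to 746 CPM at day 16, Itga5 at 66.2 to 124 and 69.9 to 148 CPM, and Itga8 and Itga2b were at 0.392 to 1.33 and 0.738 to 2.51 CPM over the 8 cultures. Itga4 and Itga9, which bind VCAM and tenascin type ligands, had log2 fold changes of 0.77 ± 0.71 (SE; adjusted p = 0.405) and 1.124 ± 0.50 (SE; adjusted p = 0.0960). With the replicate block both were called higher, Itga4 at 0.99 (adjusted p = 0.0288) and Itga9 at 1.18 (adjusted p = 0.00312). Itga9 was also called without day 16 culture 3, at 1.42 (adjusted p = 0.0279).

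The 6 broadly used β subunits split, with 2 called higher, 2 called lower and 2 not called, beside 20.1% and 19.7% of all genes called higher and lower. Itgb1 (chr8:128685654-128733200), the common partner of most α subunits, was at 2255, 2099, 1441 and 1949 CPM at day 6 and 3840.5, 3133, 4136 and 5872 CPM at day 16, and its log2 fold change was 1.13 ± 0.23 (SE; adjusted p = 0.00337). Itgb5, a partner of Itgav, was at 94.2, 109.8, 134 and 127 CPM and 214, 216, 244 and 251 CPM (0.99 ± 0.14 SE, adjusted p = 5.48e-04). For both genes every senescent culture lay above every non-senescent one. Itgb3, the other vitronectin-binding partner of Itgav, went the other way, from 76.1, 91.8, 40.6 and 57.6 CPM to 29.4, 44.1, 20.4 and 24.3 CPM (-1.17 ± 0.29 SE, adjusted p = 0.0102), with day 16 culture 2 above the lowest day 6 culture.

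Itgb6, an epithelial partner of Itgav that activates latent TGF-β, was at 119.8, 120.1, 144 and 224 CPM at day 6 and 59.4, 50.005, 120.4 and 92.9 CPM at day 16 (-0.91 ± 0.30 SE, adjusted p = 0.0340). Day 16 culture 3 reached the lower day 6 values, and the call was lost without day 6 culture 4 (adjusted p = 0.0928) and without day 16 cultures 1, 2 or 4 (0.0947, 0.0800 and 0.0556). Itgb4 was at 80.3 to 175 CPM and Itgb8, which also activates TGF-β with Itgav, at 11.8 to 75.3 CPM, and neither was called. Of the 4 β partners of Itgav beside Itgb1, 1 rose, 2 fell and 1 was not called.

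**Figure D2:**
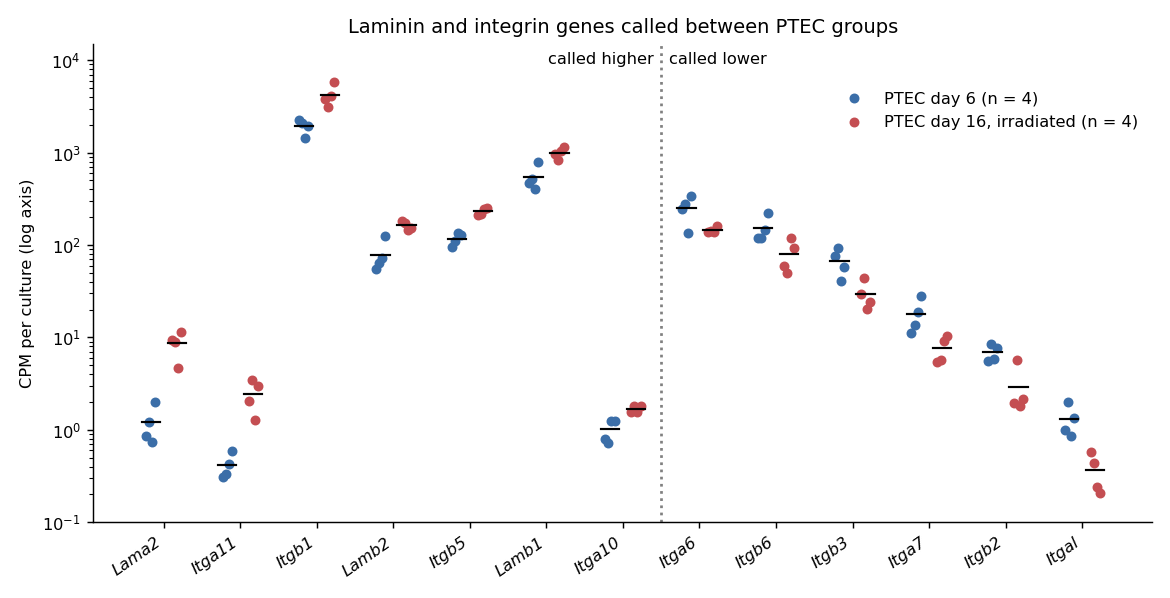
CPM (logarithmic vertical axis) of the 13 called genes in each of 4 day 6 cultures (blue) and 4 irradiated day 16 cultures (red), ordered by log2 fold change. Black lines are group means, and the groups of Lama2, Itga11, Itgb1, Lamb2, Itgb5, Lamb1, Itga10, Itga7 and Itgal lie apart while those of Itga6, Itgb6, Itgb3 and Itgb2 overlap.

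Of 3 leukocyte integrin subunits that were tested in the cultures, 2 fell, Itgal and Itgb2, beside 19.7% of all genes called lower. Itgal (chr7:127296260-127335138), the α subunit shared by lymphocytes and other leukocytes, was at 0.984, 2.002, 0.863 and 1.33 CPM at day 6 and 0.579, 0.435, 0.243 and 0.207 CPM at day 16, with no overlap (-1.82 ± 0.41 SE, adjusted p = 0.00584), from 32, 61, 22 and 36 reads to 18, 13, 9 and 6 reads. Itgb2, the common β subunit of leukocytes, went from 5.56, 8.50, 5.80 and 7.71 CPM to 1.93, 5.69, 1.81 and 2.14 CPM (-1.25 ± 0.38 SE, adjusted p = 0.0246). Day 16 culture 2 stood above the other 3 senescent cultures and within the day 6 range. Without it the log2 fold change was -1.81 (adjusted p = 9.10e-04), while the call was lost without day 6 culture 2 (adjusted p = 0.0568) or 4 (0.0518) and without day 16 culture 1 (0.0723), 3 (0.0556) or 4 (0.0709).

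Some leukocyte markers moved with these integrins, where 19.7% of all genes tested were called lower. Ptprc, the pan-leukocyte surface marker, was at 2.95, 4.43, 2.82 and 4.17 CPM at day 6 and 1.58, 1.57, 2.38 and 1.93 CPM at day 16 (-0.94 ± 0.25 SE, adjusted p = 0.0141). Of 8 pan-leukocyte genes, 6 were tested and 3 fell (median log2 fold change -0.41), with a summed level of 22.1 to 42.7 CPM at day 6 and 14.2 to 35.6 CPM at day 16. Of 10 macrophage genes, 9 were tested and 2 fell, and their summed level was 117 to 176 CPM and 81.4 to 272 CPM. All 10 T and NK cell genes were under 1 CPM in both groups, with Cd3d and Cd3g at 0 reads in all 8 cultures. Fewer leukocytes and less RNA per leukocyte cannot be told apart in bulk RNA, and the part of these cells in the fall was not tested. Itgam, the α subunit of macrophages and granulocytes, was at 0.400 to 1.87 CPM and was not called. Of its exon bases, 68.7% are also annotated to a gene on the same strand, Gm49368, which had at most 0.0270 CPM in the cultures.

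Genes around the members were read from 4 lists of partners. Over all genes tested, 20.1% were called higher and 19.7% lower, and the lists were not tested as sets. Of 21 other basement membrane genes, 20 were tested, 9 rose and none fell (median 0.96), with the largest rise in Col4a3, a collagen IV chain of the glomerular basement membrane, at 2.28. Of 16 matrix ligands of integrins, 15 were tested, 8 rose and none fell (median 1.64), led by the matricellular gene Postn at 3.27, from 3.01, 4.27, 3.92 and 6.20 CPM to 21.97, 44.9, 29.9 and 70.7 CPM. Of 8 ligands on cell surfaces, 7 were tested and 2 rose, Jam3 most at 1.74. Of 24 genes of the adhesion machinery inside the cell, 23 were tested and 4 rose, with Tln2, a talin, at 1.43. None of the genes on these lists fell by the rule.

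Markers of several cell types moved beside Lama2 and Itga11. The shares of all genes tested were 20.1% called higher and 19.7% called lower. Of 5 smooth muscle genes 3 rose, and their summed level was 103 to 282 CPM at day 6 and 927 to 2213 CPM at day 16, with Acta2 at 64.00, 94.5, 49.9 and 33.7 and 991, 537, 448 and 804 CPM. Of 8 fibroblast and pericyte genes 7 were tested, 4 rose and 1 fell, with a summed level of 88.3 to 275 CPM and 130.3 to 402 CPM, and the largest rise was that of Dcn at 3.07, from 0, 0.131, 0.0784 and 0.148 CPM to 0.611, 1.11, 0.756 and 0.587 CPM. Of 6 podocyte genes 5 were tested and 2 rose, Nphs1 most at 3.36. Of the tubular markers, 4 of 7 tested proximal tubule genes were called lower (median log2 fold change -2.20). The summed level of all 12 proximal tubule genes overlapped, at 227 to 873 CPM at day 6 and 174 to 355 CPM at day 16. Also lower were 4 of 5 genes of the loop of Henle (median -3.54, Kcnj1 most at -5.72) and 2 of 3 tested distal and collecting duct genes. Of 8 endothelial genes 1 fell, Kdr at -1.01. The part of these cells in the changes of the laminins and integrins was not tested.

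In the kidneys 17067 genes were tested, among them all 37 members. Comparisons of 24 with 3, 12 with 3 and 24 with 12 months share their kidneys in pairs and are not independent. At 24 against 3 months 2 members were called higher, Itga11 and Itgal, against 1.89% of all genes, and none was called lower, against 0.451%. At 12 against 3 months 1 was called higher, Itga11, against 1.22%, and 1 lower, Itgb6, against 1.36%. At 24 against 12 months 1 was called higher, Itgb6, against 0.896%, and none lower, against 0.434%. At an unadjusted p under 0.05, edgeR had 12 members higher and 0 lower at 24 against 3 months, beside 9.97% and 8.23% of all genes, and 8 higher and 1 lower at 24 against 12 months, beside 8.06% and 7.19%. At 12 against 3 months 11 members were higher and 5 lower by that cut, and the share of all genes was not computed there. The median log2 fold changes of the 37 were 0.26, 0.06 and 0.21, beside 0.000710, 0.00441 and -0.000437 over all genes. DESeq2 with the settings the study states called more genes in all. At 24 against 3 months it called 8 members higher and 0 lower, beside 2.42% and 1.03% of the 30029 genes it tested. At 12 against 3 months it called 6 higher and 3 lower, beside 1.77% and 1.92%, and at 24 against 12 months 3 higher and 0 lower, beside 1.64% and 0.952%. With 1 kidney left out, the 2 higher calls at 24 against 3 months became 6 without 3-month kidney 2, beside 2.62% of all genes. They became 1 without 3-month kidney 1 or 3 or 24-month kidney 1 or 2, beside 0.298%, 0.789%, 0.716% and 0.907%.

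Itga11, at chr9:62677826-62783982, was the 1 member called higher at both older ages than at 3 months, though it was rare. It was at 0.105, 0.102 and 0.0450 CPM at 3 months, 0.364, 0.313 and 0.270 CPM at 12 months and 0.870, 0.517 and 0.737 CPM at 24 months, from 4, 5 and 2, 21, 19 and 14 and 57, 34 and 48 reads. The 3 ages did not overlap. The log2 fold change was 3.04 ± 0.40 (SE; adjusted p = 0.00770) at 24 against 3 months and 1.89 ± 0.41 (SE; adjusted p = 0.0494) at 12 against 3 months, and 1.16 ± 0.34 (SE; adjusted p = 0.140) at 24 against 12 months. The call at 24 months was kept in all 6 fits that left out 1 kidney (adjusted p at most 0.0446), and that at 12 months in none of 6, with adjusted p of 0.0602 to 0.157. Of the 8 fibroblast and pericyte genes none was called at 24 against 3 months, and their summed level was 149 to 184 CPM at 3 months and 211 to 258 CPM at 24 months.

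Of the 6 leukocyte integrin subunits, 1 was called higher at 24 against 3 months, Itgal, beside 1.89% of all genes. Itgal was at 1.37, 1.82 and 1.24 CPM at 3 months, 2.55, 2.78 and 2.72 CPM at 12 months and 4.57, 3.31 and 2.98 CPM at 24 months, and each age lay above the one before. Its log2 fold change at 24 against 3 months was 1.29 ± 0.23 (SE; adjusted p = 0.0242). The call was lost without 3-month kidney 1 (adjusted p = 0.142) or 3 (0.0890) and without 24-month kidney 1 (0.0857) or 2 (0.0569). Itgax, the α subunit of dendritic cells, was at 1.37, 2.01 and 1.57 CPM, 3.09, 3.22 and 4.46 CPM and 5.07, 3.31 and 3.19 CPM and missed the threshold (1.22 ± 0.26 SE, adjusted p = 0.0510). The common leukocyte partner Itgb2 was at 3.18, 3.15 and 3.46 CPM at 3 months and 9.18, 5.56 and 4.68 CPM at 24 months (0.99 ± 0.26 SE, adjusted p = 0.0928).

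Itgb7, the β subunit of gut-homing lymphocytes, and Itga4, its partner, had log2 fold changes of 1.31 ± 0.33 (SE; adjusted p = 0.0828) and 1.01 ± 0.29 (SE; adjusted p = 0.123). Itgam had 0.79 ± 0.52 (SE; adjusted p = 0.412) and Itgae, the α subunit of lymphocytes within epithelia, had -0.17 ± 0.53 (SE; adjusted p = 0.862). Under DESeq2 Itgax, Itgb2, Itgb7 and Itga4 were called with Itgal, at adjusted p of 0.00204, 0.0182, 0.0101, 0.0491 and 7.60e-05. Higher means of these 5 genes at 24 than at 3 months follow from the calls that picked them. Of the subunits not called, Itgam had a positive log2 fold change and Itgae a negative one.

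Leukocyte markers rose in part beside them, where 1.89% of all genes were called higher at 24 against 3 months. The summed level of the 8 pan-leukocyte genes was 58.5 to 69.4 CPM at 3 months, 94.6 to 96.97 CPM at 12 months and 100.4 to 145 CPM at 24 months, and 1 of the 8, Rac2, was called at 24 against 3 months (1.59). Of 10 T and NK cell genes 3 rose, of 7 B and plasma cell genes 2 rose, Cd79a most at 2.86, and of 10 macrophage genes 1 rose, C1qc. Per unit of Ptprc in the same kidney, Itgal was at 0.300 ± 0.120 (SD, n = 3) at 3 months and 0.420 ± 0.0797 at 24 months, Itgb2 at 0.642 ± 0.132 and 0.736 ± 0.167, and Itgax at 0.329 ± 0.118 and 0.447 ± 0.102. These ratios overlapped between the ages. Itgae per Ptprc was at 0.464 ± 0.147 at 3 months, 0.225 ± 0.0455 at 12 months and 0.256 ± 0.0656 at 24 months.

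Itgb6 (chr2:60598292-60722643) fell at 12 against 3 months and was higher at 24 than at 12 months. It was at 135, 121 and 112 CPM at 3 months, 41.9, 56.5 and 58.4 CPM at 12 months and 97.96, 139 and 92.9 CPM at 24 months. All 12-month kidneys lay below all others, and those of 3 and 24 months overlapped. The log2 fold change was -1.23 ± 0.20 (SE; adjusted p = 0.0236) at 12 against 3 months, 1.07 ± 0.20 (SE; adjusted p = 0.0443) at 24 against 12 months and -0.16 ± 0.20 (SE; adjusted p = 0.647) at 24 against 3 months. With 1 kidney left out, the fall was called in 1 of 6 fits, that without 3-month kidney 2, with adjusted p up to 0.109 without 3-month kidney 1, and the later rise in none of 6, with adjusted p of 0.0803 to 0.152. DESeq2 called both, at 4.01e-06 and 1.83e-04. The comparison of 24 with 12 months lies within 1 gene set.

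The same-numbered kidneys of 12 and 24 months deviated together from their group means, with correlations over genes of 0.384, 0.557 and 0.172. They are different mice and no label links equal numbers, so a block by number has no basis in the design. With these 6 kidneys alone and the number as a block, an alternative added after the data were seen, 6 members were called higher at 24 than at 12 months and none lower. Calls rose over all genes too, to 7.77% higher and 5.41% lower, while the block over all 3 ages called 0 genes. The members were Itgb6 at 1.06, Itgb4 at 1.39, Itgb3 at 1.08, Itga3 at 0.72, Itga6 at 0.63 and Itga11 at 1.14 on the log2 scale. The p-values of this fit assume links between mice that the design does not give, so they are left out. Itga3, Itga6 and Itgb4, laminin-binding subunits of epithelial cells, were not called in the fit without a block. Itgb4 was at 2.81, 1.32 and 3.22 CPM at 12 months and 6.83, 3.997 and 7.96 CPM at 24 months, and Itga3 at 28.8, 16.9 and 33.8 and 55.8, 33.2 and 39.3 CPM.

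Lamb3 and Itga2, an epithelial laminin chain and a collagen receptor, were low at 12 months and did not pass, with wide spread at 3 months. Lamb3 was at 30.7, 4.28 and 15.8 CPM at 3 months, 2.98, 2.06 and 3.01 CPM at 12 months and 18.4, 3.30 and 6.22 CPM at 24 months (-2.65 ± 0.77 SE, adjusted p = 0.117 at 12 against 3 months). Itga2 was at 5.75, 0.328 and 4.03 CPM, 0.330, 0.329 and 0.270 CPM and 5.22, 0.699 and 0.507 CPM (-3.43 ± 1.15 SE, adjusted p = 0.165). Both genes were high in 3-month kidneys 1 and 3 and in 24-month kidney 1, and low in 3-month kidney 2.

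Markers of the urothelium, the lining of the renal pelvis, were also lowest at 12 months. This list of 6 genes (Upk1a, Upk1b, Upk2, Upk3a, Krt5 and Psca) was chosen after the values were seen. At 12 against 3 months 1.36% of all genes were called lower. Its summed level was 181, 28.1 and 153 CPM at 3 months, 3.75, 5.49 and 1.81 CPM at 12 months and 39.8, 22.6 and 54.6 CPM at 24 months, and all 6 genes were called lower at 12 against 3 months, Krt5 by the most at -5.94. Of 8 distal and collecting duct genes 1 was called (median log2 fold change -0.46), the collecting duct gene Aqp2, which fell from 615, 238 and 567 CPM to 103, 105 and 104 CPM, and was at 293, 162 and 248 CPM at 24 months (-2.18 at 12 against 3 months, adjusted p = 0.0224). Within the 3-month group kidney 2 was lowest in the urothelial level, in Lamb3 and in Itga2. At 24 months the urothelial level was highest in kidney 3, and Lamb3 and Itga2 were highest in kidney 1. Itgb6 was at 121 CPM in 3-month kidney 2 and at 135 and 112 CPM in the others of that age. The part of these cells in the change of the integrins was not tested.

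**Figure D3:**
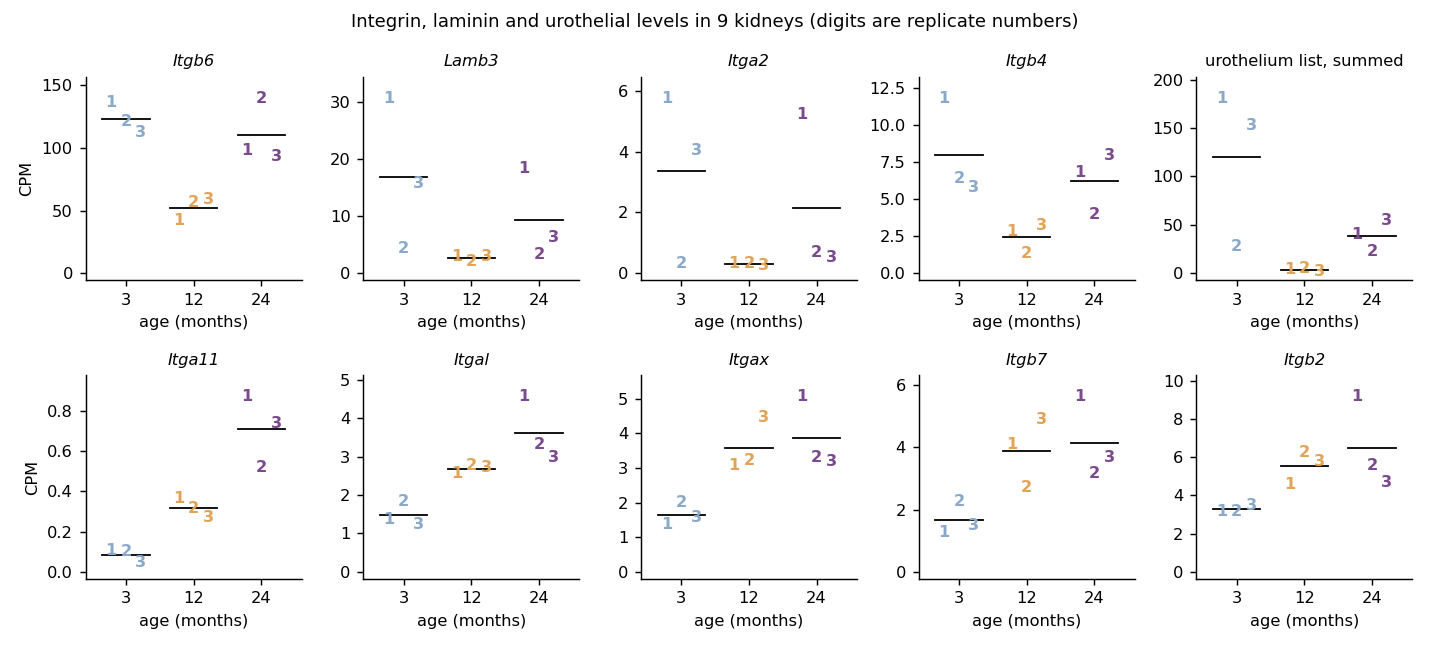
CPM (linear vertical axes starting just below 0) of 9 integrin and laminin genes and of the summed 6-gene urothelium list in 9 kidneys by age in months. Digits are replicate numbers and black lines are group means. Itgb6, Lamb3, Itga2, Itgb4 and the urothelium list are lowest at 12 months, and Itga11 and Itgal rise from age to age without overlap.

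The laminin chains and nidogens of the kidney were not called at any age. Lama1, the α chain of tubular basement membranes, was at 6.28 to 18.7, 11.7 to 25.01 and 13.8 to 22.4 CPM at 3, 12 and 24 months. Lama2 was at 6.70, 8.73 and 6.41 CPM at 3 months, 12.9, 17.5 and 12.3 CPM at 12 months and 19.1, 12.4 and 11.1 CPM at 24 months. Its lowest value at 24 months lay above the highest at 3 months, but it missed the threshold at 24 (0.96 ± 0.24 SE, adjusted p = 0.0860) and 12 months (0.97 ± 0.24 SE, adjusted p = 0.0773) against 3 months. DESeq2 called it at both, at adjusted p of 0.0153 and 0.0139. The identifier version of Lama2 changed between the 3-month and the older gene set. Nid1, at 14.05, 23.2 and 11.1 CPM at 3 months, 27.5, 26.9 and 32.03 CPM at 12 months and 41.8, 24.5 and 24.8 CPM at 24 months, had log2 fold changes of 0.91 ± 0.30 (SE; adjusted p = 0.164) and 0.84 ± 0.30 (SE; adjusted p = 0.194).

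The abundant β subunits Itgb1, Itgb5 and Itgb8 were not called between any ages. Itgb1 was at 258, 269 and 278 CPM at 3 months, 258, 231 and 259 CPM at 12 months and 291, 235 and 234 CPM at 24 months, and its log2 fold change at 24 against 3 months was -0.09 ± 0.14 (SE; adjusted p = 0.722). Itgb5 was at 105, 149 and 71.5, 130.4, 69.6 and 135 and 148, 102 and 141 CPM (0.26 ± 0.32 SE, adjusted p = 0.635), and Itgb8 at 166, 157 and 180.2, 152, 188 and 171 and 156, 216 and 134 CPM (0.01 ± 0.19 SE, adjusted p = 0.984). The ages overlapped for all 3 genes. The remaining members, Itga1, Itga5, Itga7, Itga8, Itga9, Itga10, Itgav, Lama3, Lama4, Lama5, Lamb1, Lamb2, Lamc1, Lamc3 and Nid2, were not called in any kidney comparison, with log2 fold changes at 24 against 3 months of -1.35 for Itga10 to 1.13 for Lamc3.

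Itga2b, the fibrinogen receptor of platelets, was at 6.72 to 11.2 CPM in the 9 kidneys and was not called. The summed level of 6 other platelet and megakaryocyte genes was 1.09 to 3.68 CPM, below Itga2b in each kidney.

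Few partner genes were called between the ages. Shares of all genes called higher and lower were 1.89% and 0.451% at 24 against 3 months. They were 1.22% and 1.36% at 12 against 3 months, and 0.896% and 0.434% at 24 against 12 months. At 24 against 3 months none of 21 other basement membrane genes rose and 1 fell, Col4a5 at -0.91. Of 16 matrix ligands 2 rose, Col6a2 most at 1.69, and of 8 ligands on cell surfaces 7 were tested and 2 rose, Vcam1, a ligand of Itga4, most at 1.57. None of the 24 adhesion machinery genes was called. At 12 against 3 months 2 basement membrane genes fell, Col4a6 most at -2.84, and 2 matrix ligands fell, Tnc most at -1.34, while none of either list was called at 24 against 12 months. No test set these lists in the kidneys against those in PTEC.

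The makeup of laminin was read as the share of each α or β chain among chains of its kind, per kilobase and within a library. Lama5 made up 81.2% ± 7.42 (SD, n = 4) of α chain transcripts at day 6 and 84.5% ± 4.18 at day 16, and 50.2% ± 9.81 (n = 3), 41.4% ± 5.53 and 37.7% ± 4.52 in kidneys of 3, 12 and 24 months. Lama1 was at 1.35% ± 0.141 at day 6 but at 16.8% ± 7.63, 22.5% ± 6.87 and 23.2% ± 3.84 in the kidneys. The cultures held mainly Lama5, and the kidneys a mixture of Lama5, Lama1 and Lama3. Lama2, despite its rise, reached 0.861% ± 0.272 of α chain transcripts in the senescent PTEC, beside 0.118% ± 0.0140 before.

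Among β chains, Lamb3 had a share of 27.5% ± 7.95 at day 6 and 11.4% ± 5.45 at day 16, while Lamb1 was at 58.8% ± 6.70 and 69.6% ± 2.29 and Lamb2 at 13.7% ± 2.74 and 19.01% ± 4.33. The shares of Lamb3 were 17.02% to 35.01% and 6.44% to 18.6%, which overlapped. By culture number they were 32.1, 25.9, 35.01 and 17.02% at day 6 and 8.06, 6.44, 18.6 and 12.4% at day 16. The share was lower at day 16 for all 4 numbers, though no label pairs the cultures. In the kidneys Lamb3 was at 2.89% to 22.2% at 3 months, 2.01% to 2.39% at 12 months and 3.28% to 9.34% at 24 months.

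Nidogen transcripts were almost all Nid1 in the cultures and a mixture in the kidneys. Nid1 made up 96.8% ± 1.95 of nidogen transcripts at day 6 and 94.3% ± 0.861 at day 16. In the kidneys it was at 48.9% ± 1.17 at 3 months, 68.2% ± 0.805 at 12 months and 62.2% ± 4.41 at 24 months, with ranges of 47.6% to 49.7%, 67.4% to 68.99% and 57.3% to 65.7%. The 3-month kidneys lay below all older ones. Mean levels at 3, 12 and 24 months were 16.1, 28.8 and 30.4 CPM for Nid1 and 12.7, 10.0 and 13.5 CPM for Nid2. Of the exon bases of Nid1, 2.06% are shared with Gm48682, and of those of Nid2, 8.45% with Rtraf, both on the opposite strand. The strand setting of the counting is not given. The 3-month kidneys were counted on another gene set, so that age and counting cannot be told apart here.

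**Figure D4:**
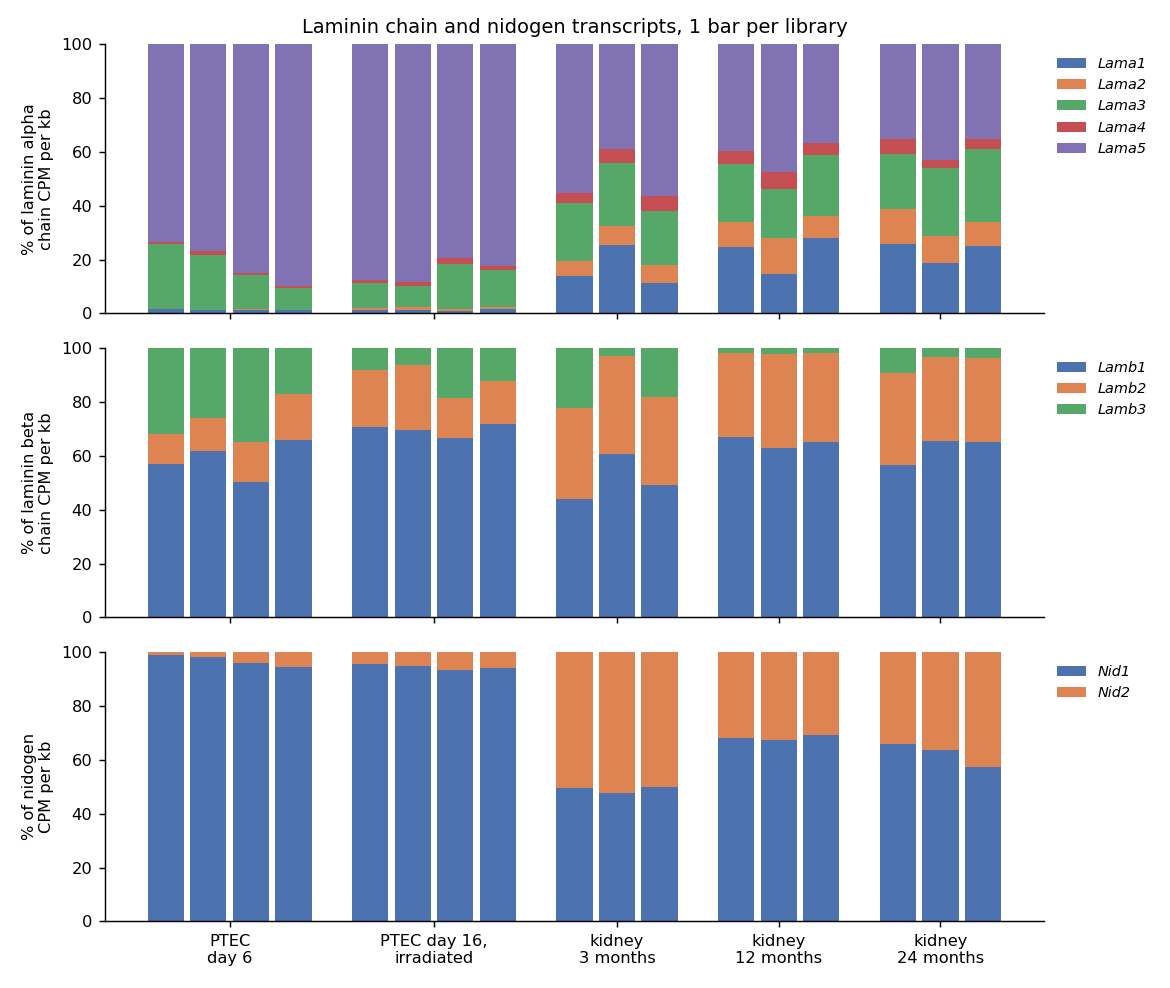
Share in percent (vertical axes) of each laminin α chain, each laminin β chain and each nidogen among the transcripts of its kind, per kilobase of exon, with 1 stacked bar per library in 5 groups. Lama5 and Nid1 fill most of the PTEC bars, and the Nid2 part of the kidney bars is larger at 3 months than at 12 and 24 months.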

How the data were processed

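RNA of 8 PTEC cultures and 9 kidneys had been sequenced. The authors deposited raw counts per gene for each library, made with the nf-core/rnaseq pipeline on GRCm38 (build per the submitters' processing notes). The aligner, the counter and its strand setting are not given in the sources used here. Positions, exon lengths and symbols are from GENCODE release M 21, matched by identifier without version, while the study names an earlier release and the files hold 3 gene sets.

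Counts were tested in R 4.3.3 with edgeR 4.0.16 (TMM, filterByExpr, robust quasi-likelihood test, Benjamini-Hochberg over all genes), PTEC and kidneys apart, the 3 ages sharing one spread. Alternatives were DESeq2 1.42.0 size factors and test, no filter, a replicate block, only 2 ages, no fold threshold and leaving out each library. Scripts were tested on simulated data. CPM use TMM scaling. Levels per kilobase divide by merged exon length. Figures were drawn with matplotlib 3.10.9.

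Deviations of same-numbered cultures from their group means correlated at 0.284, 0.382, 0.614 and 0.186. Differently numbered cultures were not compared in this way, and no label pairs the PTEC, so these values do not show a pairing. In the kidneys such correlations were positive for 12 with 24 months only, and these are different mice. Replicates of a group differed beyond counting noise. The members, lists and tests were chosen with earlier results of these data known. Values in every sample are given for called members (up to 8 in each direction, with a mean of at least 1 CPM in a group, and any others in counts of at most 5) and for uncalled members with the 3 highest levels per kilobase. Other members named by sample were chosen after their values were seen. Protein sequences were not used here. Shares among γ chains and some single genes of the lists are not reported here.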

Additional observations from a re-analysis of the deposited data

Results flagged for a closer look

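In groups of 4 cultures, a value was singled out where its gap to the nearest other culture took up more of the whole range than Dixon's test allows. This was met in 5 of 68 groups, and chance alone meets it in about 1 of 20. At day 6, culture 4 was high for Lama5, at 1139.5 CPM beside 383 to 466 CPM in the others, and for Lama1, at 13.8 CPM beside 5.61 to 6.79 CPM. At day 16, culture 3 was low for Lamc1, at 134 CPM beside 197 to 207 CPM. Culture 4 was high for Itga6, at 159.6 CPM beside 138 to 141 CPM. Culture 2 was high for Itgb2, at 5.69 CPM beside 1.81 to 2.14 CPM.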

How the results depend on the processing

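None of the alternatives turned the direction of a called member. In PTEC the 7 higher and 6 lower calls became 6 to 8 and 3 to 7 with 1 culture left out, with 3 lower calls without day 6 culture 4 and without day 16 culture 1. The kidney counts were less stable. At 24 against 3 months the 2 higher calls became 8 with DESeq2, 1 with the replicate block, 1 with only the 2 ages and 1 to 6 with 1 kidney left out, with 6 without 3-month kidney 2. At 12 against 3 months the higher call became 6 with DESeq2 and 0 without the filter, with the replicate block and with only the 2 ages, and 0 to 1 with 1 kidney left out, while the lower call became 3, 0 with the block, 0 with only the 2 ages and 0 to 2. At 24 against 12 months the higher call became 3 with DESeq2, 0 with the block over all ages, 0 with only the 2 ages, 6 with the replicate block on 12 and 24 months alone (1297 genes higher and 903 lower in all, beside 153 and 74), and 0 with any 1 kidney left out. Leaving out a kidney or an age also leaves fewer samples; the cause of the other changes was not tested. DESeq2 size factors and no fold threshold kept every count within 1.5 times.

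Without exon length, the share of Lamb1 was 68.6%, 78.3%, 62.3%, 75.01% and 72.7% at day 6, day 16, 3, 12 and 24 months. Depth limits the rare members: Itga11 rested on 2 to 57 reads per kidney and Itgae on 1 to 10 reads per culture.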
